A study of Mus musculus with 2 samples.

Results

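The cells examined here were harvested on day 7 of mouse bone marrow cultures that had received heme bound to albumin or albumin alone. A barcode entered when the deposited call gave it 1 hashtag, that hashtag was the one of day 7, it showed 500 or more detected genes, and under 15% of its unique molecular identifiers (UMIs, which count single captured transcripts) came from mitochondrial genes. The rule found 5780 cells, 3008 of the control library and 2772 of the heme library, of 25221 cells in the series that passed the same filter and of 31339 deposited barcodes.

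The cultures began from lineage-depleted marrow progenitors of C57BL/6 mice, labelled as 8 to 10 weeks old, kept in 20 ng/ml GM-CSF, and 300 µM heme-albumin or albumin was added on day 3. The control group is the albumin culture and the heme group is the heme-albumin culture, both without any genetic alteration. By day 7 the exposure had lasted 96 h. Each group was 1 library, a pool of 5 cultures carrying antibody hashtags for days 0, 3, 4, 5 and 7, and how many mice gave the marrow of a culture is not given in the sources used here.

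GM-CSF drives marrow progenitors towards granulocytes, macrophages and dendritic cells, the last of which display peptides on MHC class II molecules to T cells. Heme released from red cells is broken down by heme oxygenase (Hmox1) into biliverdin, carbon monoxide and iron. Iron is then stored in ferritin or leaves the cell through ferroportin (Slc40a1), a route for which the macrophages of the splenic red pulp are known. Heme also inactivates the repressor BACH1, and it activates the factor NRF2, which turns on genes for glutathione, thioredoxin and NADPH.

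The control culture of day 7 carried 41727584 gene UMIs (median 12238.5 per cell) and the heme culture 54438208 (median 17404). Cells with over 5000 detected genes made up 5.05% of the control culture and 27.3% of the heme culture, and ribosomal protein genes took 20.4% and 14.4% of the UMIs. On day 3, before heme was added, the cells of the heme library were also deeper, with medians of 15770 and 20197 UMIs in 2089 control and 3351 heme cells. Levels are given as a gene's UMIs per 1000000 UMIs of a culture (CPM), with the control culture named first in each pair, and as the heme to control ratio of CPM with an exact 95% Poisson interval. The part of depth in the ratios was not tested. The intervals cover counting error only. With 1 library per group there is no replicate check and no test, so "higher" and "lower" describe these 2 cultures. In sums over a culture, fewer cells of a type and less RNA per cell cannot be told apart, and for this reason values within gates of cells are given further below. The libraries shared 112 barcodes in all and 0 among the day 7 cells.

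Of 8225 genes at 10 CPM or more in either day 7 culture, 945 (11.5%) were at least 2-fold higher in the heme culture and 385 (4.68%) were at least 2-fold lower. On day 3 the same rule found 99 of 7894 genes higher (1.25%) and 3 lower (0.038%), so few genes differed 2-fold before heme. Day 4 gave 383 higher and 67 lower genes, day 5 gave 446 and 174. The median gene was 0.30 higher on the log2 scale in the heme library on day 7 and 0.34 higher on day 3. Scaling by edgeR's TMM factors turned the split to 545 higher and 603 lower genes, DESeq2's size factors gave 523 and 634, a fold taken relative to the median gene gave 540 and 621, and subtracting the day 3 log2 ratio gave 459 and 506. Of the 945 higher genes, 69 were also 2-fold higher on day 3 and 45 reached 10-fold. Of the 385 lower genes, 5 were also 2-fold lower on day 3 and 59 reached 10-fold. Net of day 3, 26 of the higher and 75 of the lower genes reached 10-fold. The balance of higher and lower genes thus depended on the scaling and on the day 3 background.

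**Figure D1:**
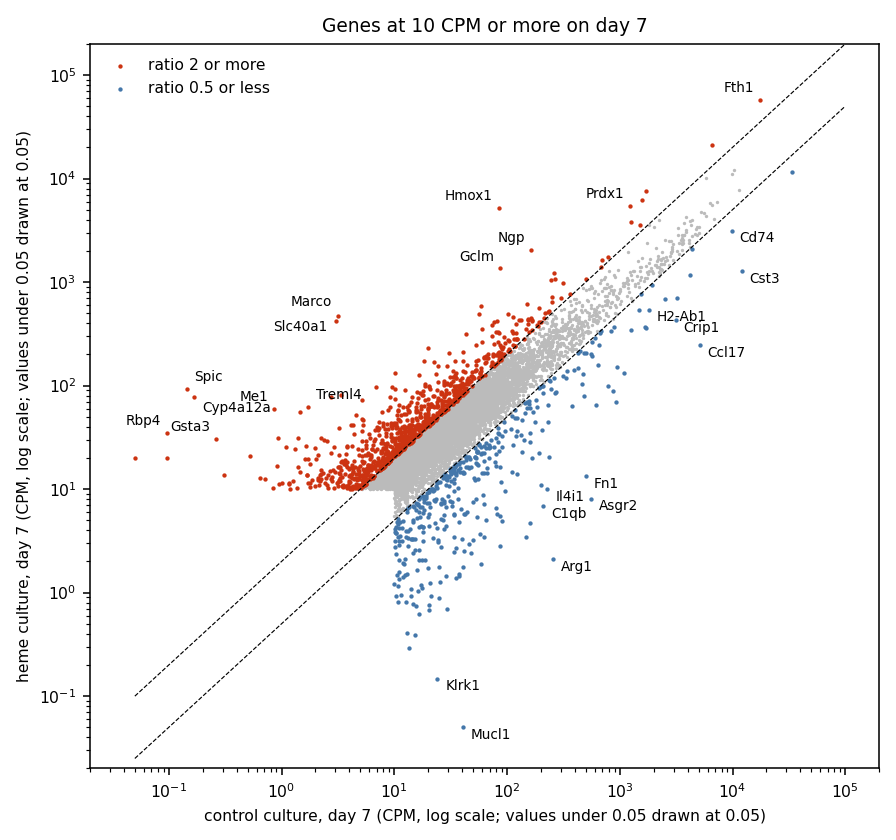
Each point is a gene at 10 CPM or more in either day 7 culture, with its level in the control culture on the x axis and in the heme culture on the y axis (both CPM, log scales) and dashed lines at ratios of 2 and 0.5. Hmox1, Marco, Slc40a1 and Spic stand far above the upper line, and Arg1, Asgr2, Fn1 and C1qb far below the lower one.

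Genes of heme breakdown, iron storage and iron export were raised together. Hmox1 (chr8:75093621-75100589, GRCm38), which opens the heme ring, was at 84.2 CPM with albumin and 5166 CPM with heme, a ratio of 61.4 (59.4 to 63.5). On day 3 Hmox1 stood at 36 CPM and 150 CPM, a ratio of 4.17 in cells not yet given heme. These cells shared a library with heme-exposed cells. Thinned as described below, day 0 cells held an Hmox1 UMI in 0.341% of the control and 33.0% of the heme library. Expression and free RNA of the pool therefore cannot be told apart in this or other day 3 ratios, nor in values net of day 3.

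The ferritin genes had the largest absolute rises of all genes. Fth1, the heavy chain that oxidises iron for storage, was at 17441 CPM and 57874 CPM, a ratio of 3.32 (3.31 to 3.33), against 1.00 on day 3. Ftl1, the light chain, was at 6539 CPM and 21033 CPM, a ratio of 3.22 (3.2 to 3.23), against 0.715 on day 3. Both ferritin genes have many processed copies in the genome, so some of their reads may have been set aside or placed elsewhere when counted.

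Ferroportin and the factor SPI-C differed by over 100-fold. Slc40a1 (chr1:45908068-45926523, GRCm38), the only known iron exporter of mammalian cells, was at 3.02 CPM and 419 CPM, a ratio of 139 (116 to 167). On day 3 it had been at 26.3 CPM and 50 CPM, so the control culture of day 7 stood below both day 3 cultures and the heme culture above both. Spic (chr10:88674772-88685015, GRCm38), a transcription factor known from red pulp macrophages, was at 0.144 CPM and 92.7 CPM, a ratio of 645 (296 to 1757). Only 6 control UMIs stand behind that ratio, as its wide interval shows.

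The rest of the list held transporters and enzymes of the same route. Slc48a1, which moves heme out of the lysosome, had a ratio of 5.37 (5.17 to 5.57), and the heme exporter Flvcr1 one of 2.14 (1.93 to 2.37). The lysosomal metal transporter Slc11a1 was at 6.72 (6.05 to 7.49), but it was already at 2.29 on day 3. Lrp1, the receptor for heme bound to hemopexin, was at 3.17 (3.02 to 3.31). Ncoa4, which delivers ferritin to the lysosome, was at 2.37 (2.25 to 2.50), and the biliverdin reductase Blvrb at 2.23 (2.18 to 2.28).

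Not all of the list was raised. The transferrin receptor Tfrc, which brings iron in, was at a ratio of 0.842 (0.786 to 0.902), and the other biliverdin reductase Blvra at 1.18 (1.12 to 1.24). Cp (ceruloplasmin, a copper oxidase of iron) was the single member 2-fold lower, at 3.28 CPM and 0.514 CPM. Of the 21 listed genes of 24 with 20 or more UMIs, 13 were 2-fold higher and 1 lower, with a median log2 ratio of 1.15. Over all 13420 genes with 20 or more UMIs, 15.5% were 2-fold higher and 7.38% lower, with a median of 0.31. On day 3 the list's median was 0.35. Heme synthesis genes did not show the same pattern, since 1 of 9 was 2-fold higher, Fech, the enzyme that inserts iron into the ring, at a ratio of 2.51 (2.30 to 2.74), and the list's median was -0.16.

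**Figure D2:**
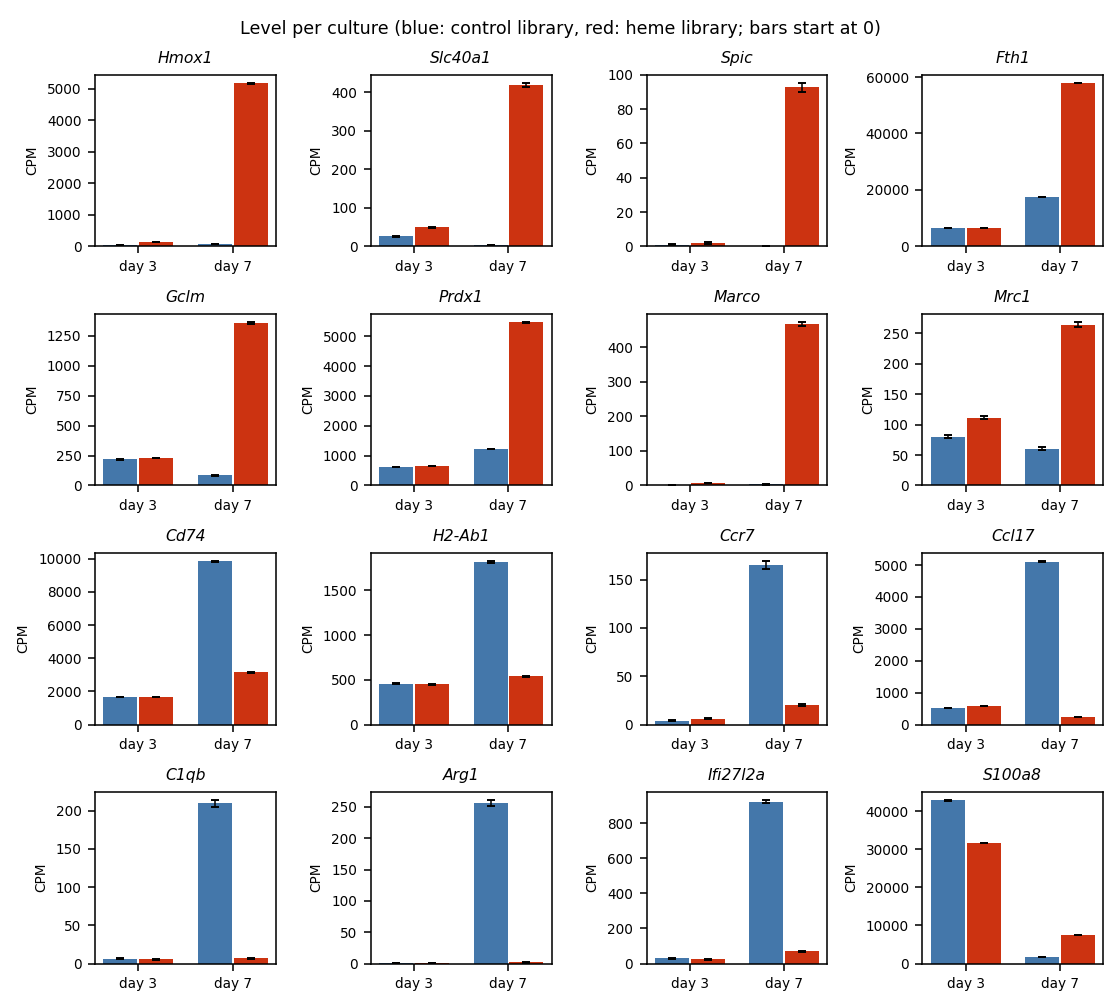
Bars give the CPM of 16 genes on day 3 and day 7 in the control library (blue) and the heme library (red), 1 culture each, with exact 95% counting intervals. Hmox1, Slc40a1, Spic and Marco are highest in the heme culture of day 7, and Cd74, Ccl17, C1qb, Arg1 and Ifi27l2a in the control culture of day 7.

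Oxidant defence genes were raised to a like extent. The sequence that NRF2 binds in such genes, the antioxidant response element, has the core TGACNNNGC. Stretches just upstream of the start of 3 raised genes are shown because each holds that core, written in capitals on either strand. They are RefSeq sequence, 5′ to 3′ on the gene's strand, from GRCm38.p6. Gclm (chr3:122245398-122245457) and Prdx1 (chr4:116685441-116685500) carry the core on the opposite strand and Gsta3 (chr1:21240439-21240498) on its own strand, all on plus-strand genes.
Gclm: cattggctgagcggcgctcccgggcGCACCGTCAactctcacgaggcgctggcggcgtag
Prdx1: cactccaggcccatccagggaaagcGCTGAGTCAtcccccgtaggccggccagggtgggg
Gsta3: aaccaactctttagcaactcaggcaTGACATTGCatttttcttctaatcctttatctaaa
In windows from 250 bases before to 50 after the start, the core was found on either strand in 7 of the 29 oxidant response genes with a promoter entry (24.1%), in 5 of 20 heme and iron genes (25%) and in 14.0% of 27025 gene promoters. Among the genes at 10 CPM or more the share was 17.2%, and among those 2-fold higher it was 21.2%. Lists with lower genes held the core as often, with 9 of 34 interferon genes (26.5%), 2 of 8 MHC class II genes (25%) and 2 of 4 complement genes (50%). The 250 bases before the start held 0 copies for Srxn1, Nqo1, Me1, Spic and Marco, which were also raised. These matches describe letters and not binding.

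Glutathione synthesis was represented by its enzyme subunits and by cystine uptake. Gclm, the regulatory subunit of the rate-limiting ligase, was at 85.9 CPM and 1354 CPM, a ratio of 15.8 (15.2 to 16.3), against 1.06 on day 3. Its catalytic partner Gclc was at a ratio of 5.04 (4.66 to 5.47). Slc7a11, the cystine transporter, was at 4.01 (3.89 to 4.14), and the glutathione reductase Gsr at 2.99 (2.90 to 3.09). Gss, the enzyme of the last step of glutathione synthesis, was at 1.57 (1.40 to 1.76) and so under 2-fold.

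Peroxide-removing and thioredoxin enzymes were divided. Prdx1, which reduces peroxides with thioredoxin, was at 1223 CPM and 5459 CPM, a ratio of 4.46 (4.42 to 4.51). Srxn1, which repairs oxidised peroxiredoxins, was at 5.52 (5.16 to 5.91), Txnrd1, the thioredoxin reductase, at 3.27 (3.15 to 3.40), and catalase (Cat) at 5.83 (5.6 to 6.08). Gpx1, a glutathione peroxidase that contains selenium, was at 1265 CPM and 345 CPM, a ratio of 0.273 (0.268 to 0.278). Prdx5 was at 0.559 (0.552 to 0.567) and Prdx2 at 0.634 (0.619 to 0.650), and Prdx3, Gpx3, Gpx4, Txn1 and Txn2 had ratios from 0.778 to 0.973.

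Conjugating and quinone-reducing enzymes held the steepest ratios of the list. Gsta3, a glutathione transferase, was at 0.264 CPM and 30.4 CPM, a ratio of 115 (64.4 to 232). Nqo1, the quinone reductase, was at 14.1 (12.5 to 16.0) and Gstm1, another glutathione transferase, at 10.1 (9.70 to 10.5). The aldo-keto reductase Akr1b8 was at 33.1 (24.1 to 46.8). On day 3, from few UMIs, Akr1b8 had already been at 6.25 and Gsta3 at 4.75, which left log2 ratios of 2.41 and 4.60 net of day 3. All 32 listed genes had 20 or more UMIs. Of these, 20 were 2-fold higher and 1 lower, against 15.5% and 7.38% of all genes. The list's median log2 ratio was 1.15, against 0.08 on day 3.

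NADPH supply, metallothioneins and the regulators gave a mixed picture. Malic enzyme (Me1), a source of NADPH, was at 0.863 CPM and 59.8 CPM, a ratio of 69.3 (50 to 99.2). The pentose phosphate enzymes Pgd and G6pdx were at 2.95 (2.88 to 3.03) and 2.34 (2.23 to 2.46), and Taldo1 at 1.77 (1.74 to 1.8). Of 9 such genes 3 were 2-fold higher, against 15.5% of all genes. The 3 metallothioneins, small proteins that bind zinc and copper, were all 2-fold higher, but Mt3 was at 7.42 on day 7 and at 5.87 already on day 3. Nfe2l2, the gene of NRF2, was at 228 CPM and 176 CPM, a ratio of 0.772 (0.750 to 0.794), whereas Bach1 was at 2.66 (2.52 to 2.81) and the partner protein gene Mafg at 2.14 (2.04 to 2.24). The heme-binding nuclear receptor Nr1d2 was at 6.11 (4.89 to 7.72).

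**Figure D3:**
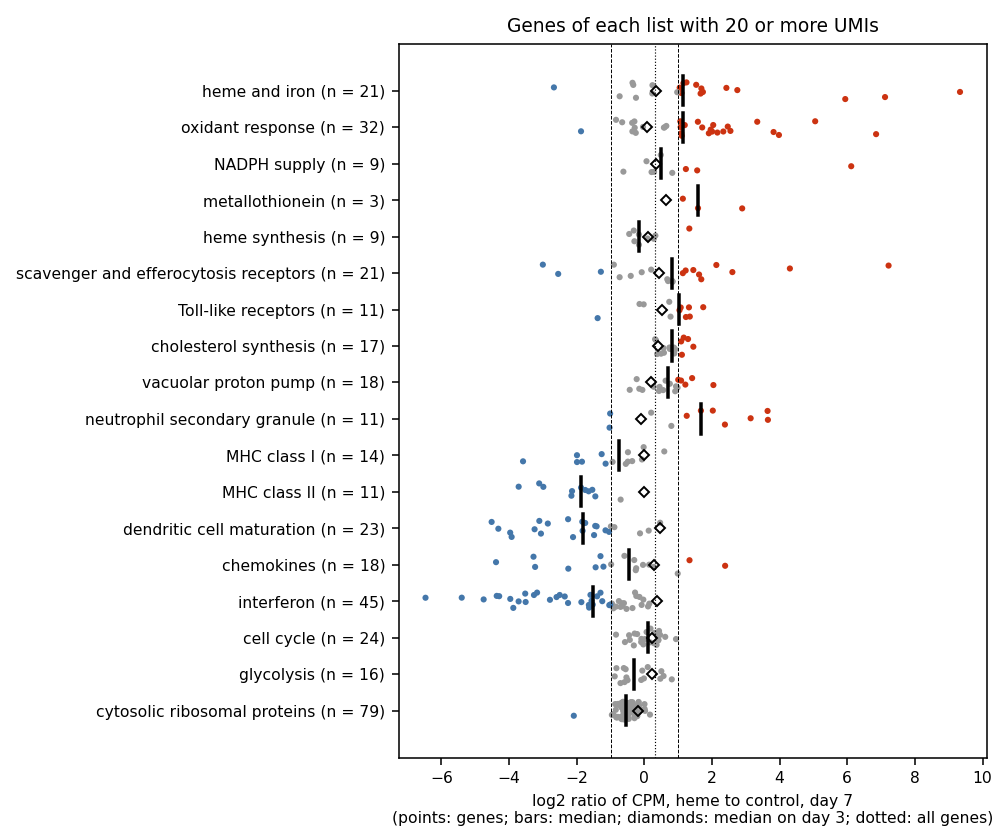
Each row is a gene list, each point the day 7 log2 ratio of CPM (heme to control) of a member with 20 or more UMIs, black bars are list medians, diamonds the medians on day 3, and the dashed lines mark 2-fold. Heme and iron and oxidant response medians lie at 1.15, MHC class II at -1.87 and interferon at -1.53, while the day 3 diamonds of these 4 lists lie between -0.02 and 0.39.

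Macrophage scavenging genes were divided. Marco (chr1:120474538-120505024, GRCm38), a receptor for bacteria and particles, was at 3.14 CPM and 468 CPM, a ratio of 149 (126 to 178). Its day 3 levels, 0.0842 CPM and 7.56 CPM, differed by 89.9-fold, from few control UMIs. Thinned as described below, day 0 cells held a Marco UMI in 0% of the control and 2.86% of the heme library. Expression and free RNA of the pool cannot be told apart in these early values. Mrc1, the mannose receptor, was at 60.4 CPM and 264 CPM, a ratio of 4.37 (4.19 to 4.56), and Gpnmb, a protein of lysosome-rich macrophages, at 4.31 (4.22 to 4.40). Gas6, a bridge to dying cells, was at 0.647 CPM and 12.8 CPM, a ratio of 19.7 (13.4 to 30.2). The receptor for Gas6, Axl, was at a ratio of 0.535 (0.519 to 0.551).

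Some C-type lectins were lower and others higher. Mgl2 was at 787 CPM and 98.2 CPM, a ratio of 0.125 (0.121 to 0.128), and Cd209a at 0.171 (0.139 to 0.209), whereas Clec4n was at 1252 CPM and 3840 CPM, a ratio of 3.07 (3.04 to 3.10), and Clec7a at 2.20 (2.15 to 2.25). Cd14, the lipopolysaccharide co-receptor, was at 0.384 (0.363 to 0.405). Of 21 scavenger and efferocytosis receptors 9 were 2-fold higher and 3 lower, against 15.5% and 7.38% of all genes. Of the markers of macrophages, 3 of 9 were higher and 3 lower. Adgre1 (F4/80) was at 66.3 CPM and 186 CPM, a ratio of 2.80 (2.68 to 2.92), and Csf1r, the receptor for M-CSF, at 159 CPM and 215 CPM, a ratio of 1.35 (1.31 to 1.39). Of other genes known from red pulp macrophages, Cd163 was at 0.336 CPM and 0.202 CPM (14 and 11 UMIs), a ratio of 0.602 (0.247 to 1.43). Macrophage markers thus moved in both directions. Thinned as described below, Vcam1 and Cd5l, also known from these macrophages, were found in few cells. Vcam1 had a UMI in 0.176% of control and 0.188% of heme cells, and Cd5l in 0.141% and 0.0376%. Spic and Slc40a1 were high with heme, while Cd163, with few UMIs, Vcam1 and Cd5l were scarce in both cultures.

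Several transcription factors of myeloid cells also stood apart. Maf was at 4.55 (4.03 to 5.15), Tfec at 4.30 (4.08 to 4.53), and the liver X receptor gene Nr1h3 at 5.85 (4.59 to 7.56). Spi1 (PU.1), which all myeloid lineages use, was at 359 CPM and 331 CPM, a ratio of 0.924 (0.904 to 0.944). Of 26 listed factors 7 were 2-fold higher and 7 lower, so the list had no common direction. The shares over all genes were 15.5% and 7.38%.

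Among the 15 genes ranked highest by ratio were several outside the lists. Cyp4a12a, a fatty acid hydroxylase, was at 0.168 CPM and 78.0 CPM, a ratio of 465 (226 to 1158), and its near-identical neighbour Cyp4a12b at 209 (81.6 to 770), so reads may be shared between them. Rbp4, the plasma carrier of retinol, was at 0.0959 CPM and 34.9 CPM, a ratio of 364 (142 to 1337). Thinned as described below, Cyp4a12a had a UMI in 0.0706% of control and 18.4% of heme cells. Before heme, its shares were 0% and 0.511% on day 3 and 0% and 0.670% on day 0. For Rbp4 they were 0.0484% and 0.211% on day 3 and 0% and 0.183% on day 0. Expression and free RNA of the pool cannot be told apart in these early values. Slc6a4, the serotonin transporter, was at 37.7 (29.3 to 49.5), Treml4, a receptor of splenic phagocytes, at 36.2 (28.6 to 46.3), and Cd276, a B7 family molecule, at 39.8 (26.2 to 63.7).

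Antigen presentation genes were lower in the heme culture. The promoters of MHC class II genes are known to carry a conserved module that includes a Y box with the letters CCAAT. The stretches of 2 class II genes are shown because they hold it, in capitals (ATTGG is the same box on the opposite strand). H2-Eb1 lies on the plus strand (chr17:34305807-34305866) and H2-Aa on the minus strand (chr17:34287837-34287896), both RefSeq sequence of GRCm38.p6.
H2-Eb1: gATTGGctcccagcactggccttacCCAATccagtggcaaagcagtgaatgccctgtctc
H2-Aa: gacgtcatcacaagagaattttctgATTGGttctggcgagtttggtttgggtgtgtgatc
All 8 class II list genes with a promoter entry held CCAAT on either strand, as did 41.1% of all gene promoters.

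The class II chains were all lower. H2-Ab1 (chr17:34257689-34269419, GRCm38), a beta chain, was at 1815 CPM and 540 CPM, a ratio of 0.298 (0.294 to 0.302), against 0.987 on day 3. H2-Aa was at 0.273 (0.270 to 0.276) and H2-Eb1 at 0.224 (0.221 to 0.228), while H2-Eb2, a chain with few UMIs, was at 0.0760 (0.0483 to 0.115). Cd74, the invariant chain that guides class II molecules, was at 9837 CPM and 3140 CPM, a ratio of 0.319 (0.317 to 0.321). On day 3 both libraries had been at 1651 CPM and 1645 CPM, so the level of Cd74 was above day 3 in both cultures on day 7 and less so with heme.

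The peptide-loading proteins differed more among themselves. H2-DMa was at 0.366 (0.358 to 0.374) and H2-DMb2 at 0.116 (0.109 to 0.123), and the H2-O chains H2-Oa and H2-Ob, which restrain loading, were at 0.227 (0.208 to 0.248) and 0.126 (0.107 to 0.149), whereas H2-DMb1 was at 0.615 (0.595 to 0.635), the only one of the 11 listed genes not 2-fold lower. Ciita, the master regulator of the class II genes, was at 82.8 CPM and 28.5 CPM, a ratio of 0.344 (0.324 to 0.365). Over all genes 7.38% were 2-fold lower. The list's median log2 ratio was -1.87, against -0.02 on day 3. MHC genes resemble each other in sequence, so their UMIs may be split between members.

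MHC class I was lower to a smaller degree. H2-K1, a class I heavy chain, was at 631 CPM and 431 CPM, a ratio of 0.684 (0.672 to 0.696), and B2m, the shared light chain, at 0.714 (0.707 to 0.722). The immunoproteasome subunits Psmb8 and Psmb9 were at 0.278 (0.271 to 0.286) and 0.251 (0.240 to 0.263), and the peptide transporter Tap1 at 0.417 (0.390 to 0.445). Of 14 listed genes 6 were 2-fold lower and 0 higher, against 7.38% and 15.5% of all genes.

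Dendritic cell maturation genes and the chemokines that go with them had some of the lowest ratios. Ccr7, the receptor that leads mature dendritic cells to lymph nodes, was at 165 CPM and 19.9 CPM, a ratio of 0.120 (0.113 to 0.128). Cd83, a maturation marker, was at 0.116 (0.104 to 0.129), Cd86, a costimulatory ligand, at 0.232 (0.212 to 0.253), and Fscn1, an actin-bundling protein of dendrites, at 0.0639 (0.0567 to 0.0719). Of 23 listed genes 18 were 2-fold lower and 0 higher, against 7.38% and 15.5% of all genes. The list's median log2 ratio was -1.83, against 0.45 on day 3. All 10 markers of dendritic cells were 2-fold lower. Their summed level was 1482 CPM with albumin and 235 CPM with heme, and none was at 0.

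Ccl17, a chemokine that calls T cells, was at 5108 CPM and 244 CPM, a ratio of 0.0478 (0.0470 to 0.0487). Its neighbour on chromosome 8, Ccl22, was at 613 CPM and 65.3 CPM, a ratio of 0.107 (0.103 to 0.110), and Ccl5 at 0.103 (0.100 to 0.106). Of 18 chemokines 7 were 2-fold lower and 2 higher, against 7.38% and 15.5% of all genes. Ccl6 and Ccl9, the abundant chemokines of macrophages, were at 0.838 (0.834 to 0.843) and 0.812 (0.800 to 0.825). The 2 higher chemokines were Ppbp at 5.23 (4.56 to 6.03) and Pf4 at 2.52 (2.47 to 2.58). The chemokines thus ranged from 5.23 to under 0.05.

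The factors that shape dendritic cells were also lower. Irf4 was at 90.7 CPM and 25.4 CPM, a ratio of 0.280 (0.263 to 0.298), Runx3 at 0.239 (0.225 to 0.253), Id2 at 0.410 (0.403 to 0.417), and Zbtb46, a factor of classical dendritic cells, at 0.297 (0.253 to 0.349). Irf8 was at 161 CPM and 60.4 CPM, a ratio of 0.376 (0.360 to 0.392). The integrin Itgax (CD11c) was at 0.458 (0.443 to 0.472).

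Complement genes and Arg1 were among the lowest. The 3 chains of C1q, the first component of the classical pathway, stood together, with C1qa at 59.2 CPM and 1.89 CPM, C1qb at 209 CPM and 6.82 CPM, and C1qc at 86.2 CPM and 2.85 CPM. Their ratios were 0.0319 (0.0260 to 0.0389), 0.0326 (0.0293 to 0.0361) and 0.0330 (0.0279 to 0.0388), whose intervals overlap. On day 3 C1qb had been at 6.54 CPM and 5.46 CPM, so the heme culture of day 7 stayed near the day 3 level and the control culture stood far above it. Properdin (Cfp) was at 0.631 (0.617 to 0.647) and C3 at 1.63 (1.58 to 1.69).

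Arg1 (chr10:24915221-24927484, GRCm38), which splits arginine and marks alternative activation, was at 256 CPM and 2.09 CPM, a ratio of 0.00818 (0.00674 to 0.00983). Arg2, its mitochondrial counterpart, went the other way with 5.18 CPM and 36.6 CPM, a ratio of 7.08 (6.15 to 8.18). Nos2, the enzyme that makes nitric oxide from the same amino acid, was low in both, at 2.08 CPM and 0.0367 CPM (2 UMIs), a ratio of 0.0176 (0.0021 to 0.0656).

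Other genes with very low ratios were surface and matrix proteins. Asgr2, a lectin, was at 561 CPM and 8.06 CPM, a ratio of 0.0144 (0.0131 to 0.0158), and fibronectin (Fn1) at 501 CPM and 13.4 CPM, a ratio of 0.0267 (0.0247 to 0.0287). Klrk1, the activating receptor NKG2D, was at 24.2 CPM and 0.147 CPM, a ratio of 0.00608 (0.00262 to 0.0120). Mucl1 was at 40.5 CPM against 2 UMIs, a ratio of 0.000908 (0.00011 to 0.00329). The cholesterol exporter Abca1 was at 33.8 CPM and 2.44 CPM, a ratio of 0.0723 (0.0600 to 0.0864), while Nr1h3, whose product is known to drive Abca1, was higher as given above.

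By absolute size the largest differences towards lower levels were of abundant genes. Tmsb4x, which holds actin monomers, was at 34034 CPM and 11583 CPM, a ratio of 0.340 (0.339 to 0.341), and Cst3, a secreted inhibitor of cathepsins that is abundant in dendritic cells, at 12032 CPM and 1284 CPM, a ratio of 0.107 (0.106 to 0.108). Crip1 was at 3146 CPM and 429 CPM. Actb, the actin itself, was at 11451 CPM and 7712 CPM, a ratio of 0.673 (0.671 to 0.676).

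Interferon-induced genes were lower on a broad front. Their promoters often hold the letters GAAANNGAA, the core that interferon regulatory factors and the ISGF3 complex bind. Stretches of 2 such genes are shown because they hold several copies, in capitals on either strand, and overlapping copies run together. Isg15 lies on the minus strand (chr4:156200850-156200909) and Ifit1 on the plus strand (chr19:34640780-34640839), RefSeq sequence of GRCm38.p6.
Isg15: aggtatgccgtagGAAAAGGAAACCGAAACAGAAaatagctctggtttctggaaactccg
Ifit1: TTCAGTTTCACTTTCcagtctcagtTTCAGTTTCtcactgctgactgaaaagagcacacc
The core was found in 23 of the 34 list genes with a promoter entry (67.6%) and in 9.76% of all gene promoters.

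Isg15, a ubiquitin-like modifier, was at 33.7 CPM and 5.57 CPM, a ratio of 0.165 (0.146 to 0.187), and Ifit1, which binds foreign RNA, at 0.0877 (0.0596 to 0.125). Ifi27l2a, a small mitochondrial protein gene, was at 922 CPM and 70.1 CPM, a ratio of 0.0760 (0.0735 to 0.0786). Mx1, an antiviral GTPase, was at 0.0510 (0.0425 to 0.0609), Usp18, which removes Isg15, at 0.0870 (0.0696 to 0.108), and Irf7, a factor of the interferon loop, at 0.275 (0.227 to 0.332). On day 3 the ratios of these 6 genes had run from 0.836 (Ifi27l2a) to 1.52 (Ifit1).

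Some members did not follow. Ifit2 was at 0.979 (0.778 to 1.23), Isg20 at 1.11 (0.946 to 1.30) and Ifi204 at 1.08 (0.999 to 1.16). Of 45 listed genes with 20 or more UMIs, 28 were 2-fold lower and 0 higher, against 7.38% and 15.5% of all genes. The list's median log2 ratio was -1.53, against 0.39 on day 3. On day 4 the median was 0.16 and on day 5 it was -0.91.

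Neutrophil genes were higher in the heme culture. S100a8, a calcium-binding protein of neutrophils, was at 1707 CPM and 7598 CPM, a ratio of 4.45 (4.42 to 4.49), and its partner S100a9 at 1582 CPM and 6176 CPM. Ngp, a granule protein, was at 163 CPM and 2053 CPM, a ratio of 12.6 (12.3 to 12.9), and lactoferrin (Ltf) at 8.83 (8.46 to 9.21). The primary granule genes Mpo and Elane were at 4.26 (3.81 to 4.78) and 3.19 (2.98 to 3.41). On day 3 S100a8 had been at 42839 CPM and 31664 CPM. It was thus far lower on day 7 in both cultures, and less so with heme. The 11 listed secondary granule genes summed to 22540 CPM and 20249 CPM on day 3. On day 7 they summed to 7720 CPM and 16749 CPM, so their fall was smaller in the heme library. Of 10 neutrophil markers 9 were 2-fold higher, against 15.5% of all genes. The summed level of the 10 was 4067 CPM and 18398 CPM.

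Other marker lists were short. Over all genes 15.5% were 2-fold higher and 7.38% lower. Of 6 progenitor markers 4 were 2-fold higher, of 6 basophil and mast cell markers 3, and of 3 megakaryocyte markers 2. The basophil and mast cell markers summed to only 20.5 CPM and 36.2 CPM. Pf4, a platelet chemokine also made by macrophages, was at 253 CPM and 638 CPM. Erythroid markers gave 3 of 6 higher, but their median net of day 3 was -0.40. Eosinophil markers gave 2 of 3 lower, Siglecf among them at 12.9 CPM and 1.52 CPM. B cell markers and T and NK cell markers had 1 and 2 genes with 20 or more UMIs. The part of these cells in the results was not tested beyond the gates that follow.

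Since dendritic cell and neutrophil genes moved with heme, the cells were split by gates of genes. Cells with 2% or more of their UMIs from S100a8, S100a9, Retnlg, Camp, Ltf, Ngp and Lcn2 made up 4.39% of the control culture (132 cells) and 16.7% of the heme culture (464 cells). Of the other cells, those with 2 or more UMIs from Ccr7, Fscn1 and Il4i1 together, at 0.05% or more of their UMIs, made up 23.6% (710 cells) and 1.59% (44 cells). On day 3 the neutrophil-gene gate held 48.7% and 47.6% and the Ccr7, Fscn1 and Il4i1 gate 0.431% and 0.806%. The remaining cells were 72.0% and 81.7% of the day 7 cultures, and 2.66% and 4.65% of cells had between 1% and 4% of their UMIs from the neutrophil genes, close to the cut. These are classes cut from a score and not cell types.

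The cells outside both gates were compared in the same way. There, 790 of 8170 genes were 2-fold higher (9.67%) and 301 lower (3.68%). Of the 945 genes higher in whole cultures 721 (76.3%) were also 2-fold higher there, and of the 385 lower genes 284 (73.8%) were also lower. The ratio of Hmox1 was 53.1 in the remaining cells and that of Slc40a1 was 162, from 2.77 CPM to 448 CPM. H2-Ab1 was at 0.309 and Cd74 at 0.361 there, C1qb at 0.0304 and Arg1 at 0.00723. The median of the heme and iron list was 1.13, of the oxidant response list 1.02, of the MHC class II list -1.53 and of the interferon list -1.68. The differences of these 4 lists were thus present outside both gates. Control cells still varied widely there. Thinned as described below, Cst3 had a median of 6 and a 90th percentile of 85.7 UMIs in them, against 3 and 6 in heme cells. For H2-Ab1 these values were 2 and 15 in control and 0 and 4 in heme cells. Fewer cells of a type and less RNA per cell therefore cannot be told apart in the remaining cells either.

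Dendritic cell maturation genes differed less outside the gates. Part of this was fixed by the gate, which removed cells by their Ccr7, Fscn1 and Il4i1 UMIs. In the remaining cells 7 of 22 were 2-fold lower, against 18 of 23 in whole cultures, and the median was -0.45. Over all 13093 genes with 20 or more UMIs in these cells, 14% were 2-fold higher and 5.71% lower. The list was thus still 2-fold lower more often than all genes there. Ccr7, which helped to define a gate, was at 2.36 CPM and 2.43 CPM in these cells, a ratio of 1.03. Irf8 was at a ratio of 1.08 there and Ccl22 at 0.232. In the cells of the Ccr7, Fscn1 and Il4i1 gate, Cd74 was at 13523 CPM and 13585 CPM, a ratio of 1.00 (0.984 to 1.03), and H2-Ab1 at 0.635 (0.592 to 0.681). Ccl5 was at 1.52 (1.47 to 1.56) within that gate, although it was lower in the whole culture. Hmox1 was higher in that gate too, at 11.0 CPM and 1020 CPM, a ratio of 92.8 (75.4 to 115).

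The neutrophil genes followed their gate in part. S100a8 was at a ratio of 1.12 within the neutrophil-gene gate and 1.85 in the remaining cells, against 4.45 in whole cultures. Ngp was at 3.41 within the gate and 2.96 in the remaining cells. In the remaining cells, thinned as described next, Ngp had a UMI in 16.1% of control and 41.6% of heme cells, close to the day 0 cells of the same libraries (15.3% and 42.5%). For S100a8 the shares were 76.6% and 93.7%, against 75.0% and 91.6% on day 0. The higher ratios outside the gate therefore came with like shares in cells never given heme. S100a8 and Ngp belong to the genes that define this gate. Hmox1 was at 60.8 CPM and 1403 CPM within it.

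**Figure D4:**
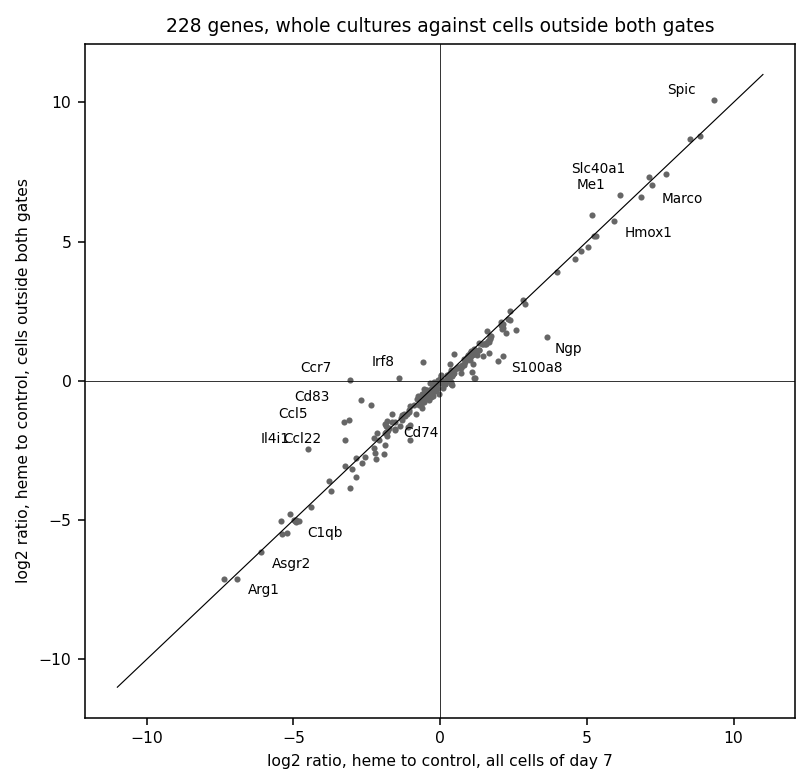
Each of 228 named genes is placed by its log2 ratio (heme to control, day 7) in all cells on the x axis and in the cells outside both gates on the y axis, with the line of equality. Hmox1, Slc40a1, Marco, Arg1, Asgr2 and C1qb lie near the line, while Ccr7, Irf8, Cd83 and Ccl5 lie above it and Ngp and S100a8 below.

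To see whether a difference lay in many cells or few, each cell was thinned to 3000 UMIs, which left out 175 control and 112 heme cells of day 7. Shares of cells with a UMI of a gene are given with exact (Clopper-Pearson) 95% intervals, beside day 0 cells of the same library, which are progenitors with medians of 11350 and 11793 UMIs. A day 0 share holds both what progenitors express and free RNA of the pool, and these cannot be told apart in it. The day 7 cells kept had medians of 12771 and 17874 UMIs before thinning.

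Hmox1 and Gclm were found in nearly all cells of the heme culture. Hmox1 had a UMI in 16.2% (14.9 to 17.6) of control and 95.7% (94.9 to 96.5) of heme cells, against 0.341% and 33.0% of day 0 cells in the 2 libraries, so an Hmox1 UMI in the heme library does not by itself mark a cell that expressed it. Before thinning the day 7 shares were 38.9% and 98.8%. The median heme cell held 14 Hmox1 UMIs in 3000. Gclm was found in 20.7% (19.2 to 22.2) and 92.8% (91.8 to 93.8), against 43.1% and 44.1% on day 0. Before thinning it was found in 54.1% and 97.7%.

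The iron exporter and the red pulp factor were found in fewer cells. Slc40a1 had a UMI in 1.41% (1.01 to 1.92) of control and 57.1% (55.2 to 59.0) of heme cells, against 6.07% and 10.7% on day 0. Spic was found in 0.0353% (0.000894 to 0.197) and 21.5% (20.0 to 23.1), against 0.136% and 0.305% on day 0. Without thinning these shares were 3.62% and 86.3% for Slc40a1 and 0.199% and 54.1% for Spic. Marco was found in 0.318% and 38.2% (36.4 to 40.1), and in 0% and 2.86% of day 0 cells. A Marco UMI in the heme library thus does not by itself mark a cell that expressed it either. Before thinning Marco stood at 1.03% and 52.5%. Rbp4, in spite of its high ratio, was found in 1.02% (0.670 to 1.47) of heme cells, and in 2.85% before thinning.

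Spic and Marco were found somewhat more often in cells that also held a Slc40a1 UMI. Of 1519 heme cells with one, 25.3% (23.1 to 27.5) had a Spic UMI, and of 1141 without, 16.5% (14.4 to 18.8). For Marco the shares were 45.4% and 28.7%. By gate, Spic was found in 25.4% of the remaining heme cells and in 2.18% of those in the neutrophil-gene gate. Marco was found in 45.0% and 5.10% of them, and Slc40a1 in 61.1% and 40.8%. The gates thus differed in all 3 genes, and their part in the difference by Slc40a1 was not tested.

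Cd74 was still found in most heme cells. It had a UMI in 93.8% (92.9 to 94.7) of control and 77.1% (75.4 to 78.7) of heme cells after thinning, with medians of 21 and 2 UMIs, and in 95.1% and 94.3% before. Day 0 cells gave 27.3% and 34.2% after thinning, and 57.7% and 74.5% before. A Cd74 UMI thus does not by itself mark a cell that expressed it. H2-Ab1 was found in 69.1% (67.4 to 70.8) and 33.4% (31.6 to 35.2), and in 78.6% and 63.5% before thinning. Its day 0 shares were 16.3% and 18.5% after thinning, and 39.1% and 47.5% before.

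C1qb, Arg1 and Klrk1 were found in under 1% of heme cells after thinning. C1qb was found in 24.1% (22.5 to 25.7) of control and 0.752% (0.460 to 1.16) of heme cells, and in 0.477% and 0% on day 0, the latter allowing up to 0.183%. Before thinning it was found in 36.4% and 4.11%. Arg1 was found in 12.8% (11.6 to 14.1) and 0.414% (0.207 to 0.739), against 0.341% and 0.122% on day 0, and in 16.7% and 1.33% before thinning. Klrk1 was found in 6.21% (5.35 to 7.17) of control cells and in 0 of 2660 heme cells, which allows up to 0.113% of cells with a UMI at this thinned depth, against 1.43% and 1.58% on day 0. Before thinning it was found in 18.8% and 0.289%. Asgr2 was found in 37.2% (35.4 to 39.0) and 1.28% (0.887 to 1.78), and in 45.8% and 3.46% before thinning.

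**Figure D5:**
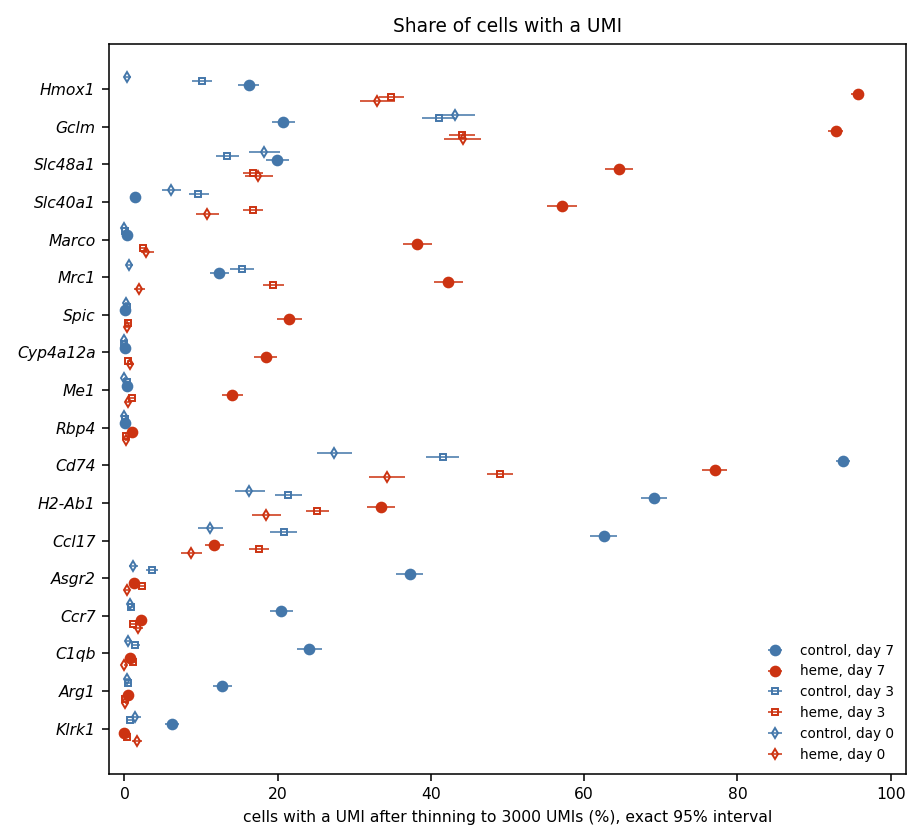
Shares of cells with a UMI after thinning to 3000 UMIs (x axis, percent, exact 95% intervals) for 18 genes in control (blue) and heme (red) cells of day 7 (filled circles), day 3 (squares) and day 0 (diamonds). Hmox1 and Gclm exceed 90% of heme cells on day 7, and C1qb, Arg1 and Klrk1 are under 1% there.

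Other groups differed in how many genes were past 2-fold, beside 15.5% higher and 7.38% lower over all genes. In whole cultures, of 24 cell cycle genes and of 16 glycolysis genes 0 were 2-fold higher and 0 lower, with medians of 0.12 and -0.30. Of 79 cytosolic ribosomal protein genes 1 was 2-fold lower, but 75 had a ratio under 1, and their summed level was 203469 CPM and 143471 CPM, with a median of -0.54 (-0.84 relative to the median gene, and -0.18 on day 3). Of 79 subunits of oxidative phosphorylation 1 was 2-fold higher and 69 had a ratio under 1, with a median of -0.36 (-0.66 relative to the median gene). Acid-handling and sterol genes were 2-fold higher in part, and 0 were 2-fold lower in either. Of 18 vacuolar proton pump genes 5 were 2-fold higher (Atp6v0a1 at 4.12, 3.96 to 4.28). Of 17 cholesterol synthesis genes 5 were 2-fold higher (Hmgcs1 at 2.73, 2.62 to 2.85), and all 17 had a ratio over 1. Toll-like receptors gave 6 of 11 higher, with Tlr2, a receptor for bacterial lipoproteins, at 2.49 (2.40 to 2.59), and 1 lower. Within the neutrophil-gene gate 10 of 24 cell cycle genes were 2-fold higher and 0 lower, beside 1588 and 414 of 9658 genes. Within the Ccr7, Fscn1 and Il4i1 gate 7 were higher and 2 lower, and of 16 glycolysis genes 1 and 6. All 10162 genes of that gate gave 2216 and 740.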

How the data were processed

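The authors captured cells with a droplet method that counts 3′ transcript ends and demultiplexed them by hashtag with HTODemux in Seurat 3.2.3. The deposited matrices hold raw UMI counts for 26124 genes, not normalized. Their header names Cell Ranger 5.0.0, the submitters' processing notes 4.0.0, along with R 4.4, Scanpy 1.6.0 and the build GRCm38.p6. The study's limits of 5000 genes and 30% ribosomal UMIs were applied only as an alternative. Doublets were treated through the hashtag calls alone, so those within 1 hashtag remain.

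UMIs were summed per culture in Python 3.11.15 and divided by the culture's total to give CPM, and ratios carry exact Poisson intervals (scipy 1.17.1). A gene called has 10 CPM or more in either culture and a ratio of 2 or more, or 0.5 or less. A count of 0 is read as allowing 3 counts. TMM factors came from edgeR 4.0.16 and size factors from DESeq2 1.42.0 in R 4.3.3, used as scales only. The ratio script was tested on simulated data. Cells and the 37 gene lists and 11 marker lists were chosen with earlier results of these data known. Named genes were the 15 highest and 15 lowest ratios at 20 CPM or more, ranked by the interval bound nearest to 1, the 10 largest CPM rises and falls, up to 4 of the most abundant members per list, members against their list's direction, and 10 genes set in advance of this ranking (Hmox1, Spic, Slc40a1, Gclm, Cd74, H2-Ab1, Ccr7, Cd83, Csf1r and S100a8). Other genes in the text are further list members, chosen after their values were seen. Symbols carried by 2 gene identifiers were left out of the lists. Positions come from the GENCODE annotation of GRCm38 and locate genes only.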

Additional observations from a re-analysis of the deposited data

Results flagged for a closer look

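The genes that follow differed in direction between an earlier harvest and day 7 by log2 ratios of heme to control of 1 or more either way, and these differences were not tested. Ccl5 was at 1.34 on day 4 and at -3.28 on day 7. Timp3, an inhibitor of metalloproteinases counted with few UMIs, was at 3.39 on day 4, 1.20 on day 5 and -2.35 on day 7. Apoe, a lipid carrier, was at 1.33 on day 4 and -1.53 on day 7. The neutrophil primary granule proteases turned the other way, with Prtn3 at -1.68 on day 4, -1.36 on day 5 and 1.46 on day 7. Elane was at -2.24, -1.35 and 1.67 on these days, and Ctsg at -2.48, -1.53 and 1.11. Mpo was at -1.83 on day 4 and 2.09 on day 7.

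Spic also appeared outside the cells used, in barcodes without a hashtag call, at 3.72 CPM in the heme library (27 UMIs) against 0 in the control library, where a count of 0 allows up to 1.14 CPM.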

How the results depend on the processing

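No paired analysis was possible because each group is 1 library and no test was made. The numbers of genes 2-fold higher and lower, 945 and 385, became 545 and 603 with TMM factors, 523 and 634 with DESeq2 factors, and 540 and 621 relative to the median gene. Net of day 3, 459 were higher. Genes with 20 or more UMIs and no CPM minimum gave 2074 and 990, and genes at 50 CPM or more gave 375 and 161. The other settings kept both counts within 1.5 times, and the causes were not tested. For TMM factors and then DESeq2 factors, the list medians (log2) were 0.88 and 0.86 for heme and iron, 0.88 and 0.85 for oxidant response, -2.14 and -2.17 for MHC class II, and -1.80 and -1.82 for interferon. Leaving ribosomal and mitochondrial genes out of the total gave 1.05, 1.04 and -1.98 for the first 3 lists. Under the study's limits on genes and ribosomal UMIs, heme and iron was at 1.04 and MHC class II at -2.49. With each cell weighted equally the first 3 lists were at 1.08, 0.90 and -2.19, and net of day 3 heme and iron was at 0.90, MHC class II at -2.05 and interferon at -1.70. Members at 10 CPM or more gave 1.39 for heme and iron and -1.81 for MHC class II. Mitochondrial UMIs under 10% gave -1.90 for MHC class II, and leaving out the neutrophil-gene gate gave -1.79. In the remaining cells oxidant response was at 1.02 and MHC class II at -1.53. All 4 medians kept their direction under every setting tried. Of 134 named genes at 2-fold or more, 17 came under 2-fold in the same direction with TMM factors and 17 with DESeq2 factors, 21 net of day 3 and 19 in the remaining cells, and 5 changed direction under some setting. In the remaining cells the log2 ratio of Ccr7 was 0.041, of Il12b 2.71 and of Irf8 0.11, net of day 3 that of Car1 was -0.17, and with equally weighted cells that of Epx was 0.84. Depth limits genes with few UMIs, such as Epx, Il12b and Mucl1.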

Other observations

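Growth factor and cytokine genes gave a further set of differences on day 7, described here as values. Tnf was at 40.9 CPM with albumin and 137 CPM with heme, a ratio of 3.35 (3.18 to 3.53). Igf1 was at 12.4 CPM and 89.9 CPM, but its ratio of 7.24 had stood at 5.54 on day 3. Il18 was at 3.83 CPM and 16.3 CPM. Vegfa, the growth factor of blood vessels, went the other way with 42.3 CPM and 5.73 CPM, a ratio of 0.135 (0.120 to 0.153). Il1rl1, the receptor for interleukin 33, was at 0.154 (0.131 to 0.180) and the decoy receptor Il1r2 at 0.473 (0.450 to 0.498). Of 19 cytokine and receptor genes 5 were 2-fold higher and 3 lower, and of 11 interleukin 1 family genes 3 and 3. The shares over all genes were 15.5% and 7.38%.

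Matrix enzymes and receptors for chemoattractants were divided as well. Mmp8 was at 310 CPM and 989 CPM, a ratio of 3.19 (3.13 to 3.25), Mmp13 at 2.52 CPM and 29.3 CPM with a ratio of 5.75 already on day 3, and Timp2 at 3.27 (3.08 to 3.47), whereas Mmp25 was at 0.154 (0.133 to 0.177) and Timp1 at 0.212 (0.176 to 0.254). Cx3cr1, the fractalkine receptor, was at 5.92 CPM and 34.2 CPM, a ratio of 5.78 (5.05 to 6.62), and Fpr2, a formyl peptide receptor, at 2.95 (2.83 to 3.08). Ccr2, which brings monocytes out of the marrow, was at 427 CPM and 148 CPM, a ratio of 0.346 (0.337 to 0.355).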
